A study of Mus musculus with 21 samples.

Results

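The interleukin-1 (IL-1) family cytokines and receptors followed here are 9 genes, *Il1a*, *Il1b*, *Il1rn*, *Il1r1*, *Il1r2*, *Il1rap*, *Il18*, *Il33* and *Il1rl1*. They were found by their gene symbol among the 55487 genes of the skin table and the 55487 genes of the lymph node table, and all 9 passed the filter on low counts in both tissues. The study made mice that carry the type I interferon gene *Ifnk* under the keratin 14 promoter, which is active in basal keratinocytes (*Ifnk* TG), and compared them with BALB/c wild-type mice (WT). The transgenic line was made on the C57Bl/6 background and backcrossed to BALB/c. Skin of 12-month-old untreated mice gave 3 WT libraries (replicates 8, 9 and 10), 2 libraries of nonlesional *Ifnk* TG skin (NL, replicates 2 and 3) and 4 libraries of lesional *Ifnk* TG skin (L, replicates 4 to 7). Inguinal lymph nodes, which drain the skin, came from WT and *Ifnk* TG mice, whose age the labels do not give, without treatment or after UVB at 250 mJ/cm2 on 3 days per week for 2 weeks and a further 2 weeks without UVB. Each of these 4 groups had 3 libraries. The labels do not say which sex a mouse was, which body site a skin sample came from or whether NL and L skin came from the same mouse, and they do not say that libraries of a group are separate animals. The study's text counts mice for the nodes after UVB, 3 of each genotype. For the other groups, p-values measure the spread between libraries, which may be technical.

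IL-1α (*Il1a*) and IL-1β (*Il1b*) are agonists that bind the same receptor, IL-1R1 (*Il1r1*), which signals together with the accessory chain IL-1RAcP (*Il1rap*). IL-1Ra (*Il1rn*) occupies that receptor without signalling, and IL-1R2 (*Il1r2*) is a decoy that binds IL-1 and cannot signal. Keratinocytes store IL-1α and IL-18 (*Il18*), IL-1β and IL-18 are cut to their active forms by caspase-1, and IL-33 (*Il33*) is a nuclear cytokine of epithelial and stromal cells whose receptor ST2 (*Il1rl1*) is found on mast cells, type 2 innate lymphoid cells and part of the regulatory T cells.

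Skin libraries held between 40499078 and 56511276 counts and node libraries between 27599809 and 36428435, so that 3 counts are at most 7.41e-06% of a skin library and 1.09e-05% of a node library. Values are given as CPM, counts relative to the library total after scaling with edgeR's TMM factors. The reads carry no molecular identifiers, and these limits cover counting error only. *Ifnk* itself had 0 counts in the WT skin libraries, 6 and 0 in NL, 14, 11, 5 and 8 in L and 0 in every node library, and whether transgene reads are counted under it is not known. L skin differed from the other skin libraries in tissue content. A list of 9 hair shaft genes, mostly hair keratins, summed to between 0.573 and 1.91 CPM in WT and NL libraries and to between 1959 and 6529 CPM in L, and 10 skeletal muscle genes summed to between 31360 and 46847 CPM in WT and NL and to between 31.1 and 9342 CPM in L. With these lists, adipocyte genes and keratin-associated protein genes removed before scaling, *Il1a*, *Il1b* and *Il1rn* still passed the test in L against WT. That removal bears on the scaling only and does not address the difference in tissue content. L replicate 4 stood apart from the other L libraries in *Il1b*, and the member values that moved without that library are given beside them. A list of 12 keratinocyte genes was present in every skin library (10784 to 28187 CPM in sum) and 8 T cell genes summed to between 2462 and 3156 CPM in node libraries, where the keratinocyte genes summed to between 12.8 and 21.2 CPM.

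In WT skin the decoy receptor was the most abundant of the 9 transcripts per length. Length was the union of all annotated exons of a gene, which can exceed that of the transcript expressed, and the order depends on it. In CPM without length, *Il1r2* (42.2 to 61.5), *Il33* (32.9 to 58.8) and *Il1r1* (36.5 to 53.7) overlapped. *Il1r2* had 26.4 ± 5.22 CPM per kilobase of exon (SD, n = 3), above *Il33* at 16.4 ± 4.57 and *Il18* at 16.1 ± 0.516. *Il1r1* at 6.75 ± 1.47 and *Il1rn* at 6.49 ± 0.563 came next, followed by *Il1rap* at 2.35 ± 0.154, *Il1a* at 2.04 ± 0.523, *Il1rl1* at 1.17 ± 0.612 and *Il1b* at 1.16 ± 0.844. The ranges of *Il33* and *Il18*, of *Il1r1* and *Il1rn*, of *Il1rap* and *Il1a*, of *Il1a* and *Il1rl1* and of *Il1rl1* and *Il1b* overlapped between libraries, so these neighbours in the order were not separated. In L skin the order of the means on the same scale began with *Il1b* (53.6 ± 92.4, n = 4), *Il18* (31.4 ± 16.3), *Il1r2* (16.0 ± 7.58) and *Il1rn* (14.6 ± 4.54). The rank of *Il1b* rested on L replicate 4 at 192 CPM per kilobase, since the lowest L library had 6.21.

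**Figure D1:**
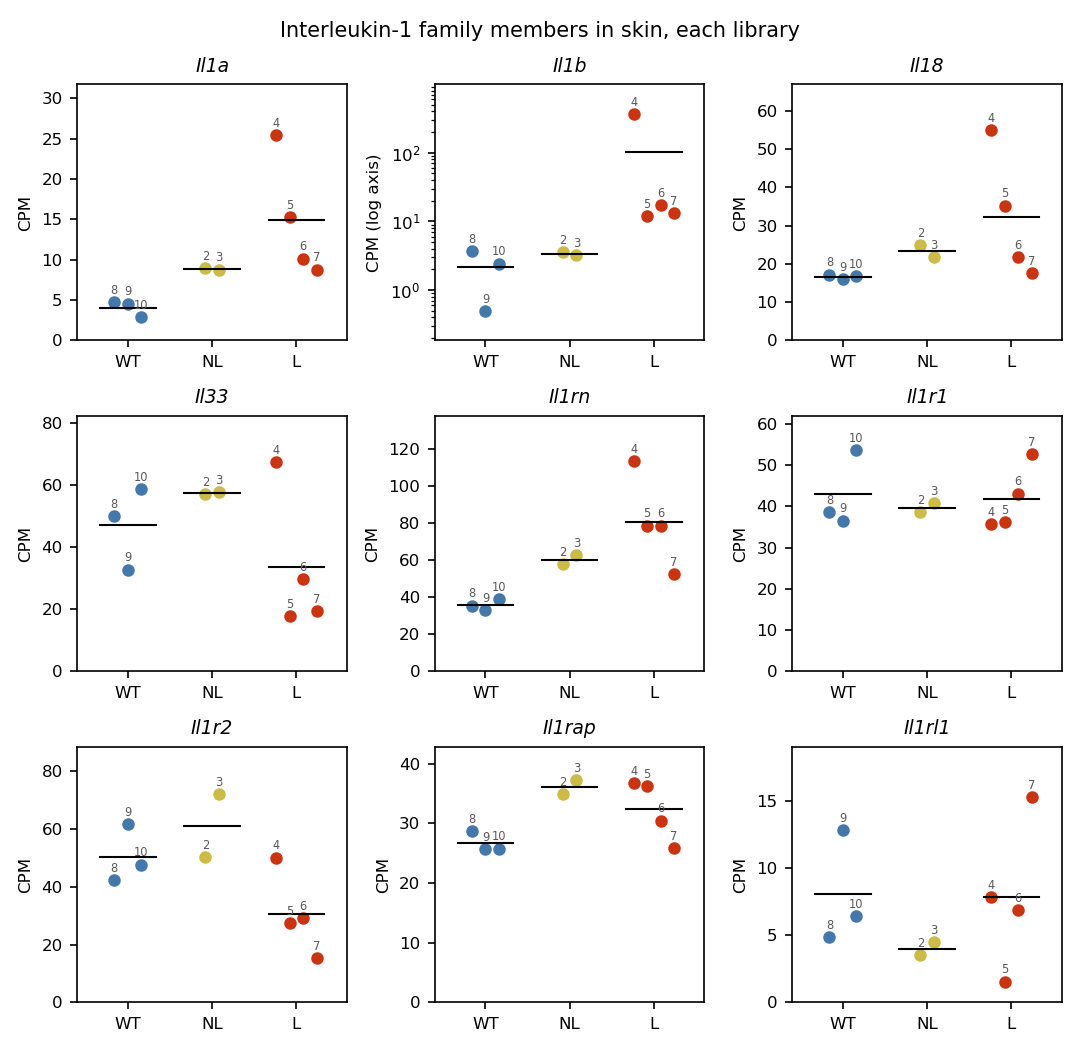
CPM of the 9 genes in each skin library (y axis, linear from 0 except *Il1b*, which has a log axis) by group (x axis: WT, NL and L). Points are libraries labelled by replicate number, and bars are group means. For *Il1a*, *Il1b*, *Il1rn* and *Il18* the 4 L libraries all lay above the 3 WT libraries, and L replicate 4 was the highest of all 9 libraries for these 4 genes and for *Il33*.

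The comparison of L with WT skin asks which of these genes differ in established lesions. *Il1a*, *Il1b* and *Il1rn* were higher in L, and no receptor chain passed the test. That is 3 of 9 members called, all higher, where 43.1% of the 19101 tested genes were called in either direction and 23% were called higher. The share of members called was therefore near the share among all genes. In bulk RNA, fewer cells of a type and less RNA per cell cannot be told apart, in either tissue. The median log2 fold change of the 9 members was 0.28, beside 0.06 over all tested genes.

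*Il1a* (ENSMUSG00000027399, chr2:129299610-129309972, minus strand) had 4.70, 4.56 and 2.84 CPM in WT skin, 8.91 and 8.76 in NL and 25.4, 15.2, 10.1 and 8.77 in L. Every L library lay above every WT library, and L replicate 7 lay between the 2 NL libraries. The rise from WT to L was 1.88 ± 0.39 on the log2 scale (SE), or 3.69-fold (edgeR, adjusted p = 0.00505). Without L replicate 4 it was 1.49 (edgeR, adjusted p = 0.00359).

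*Il1b* (ENSMUSG00000027398, chr2:129364570-129371139, minus strand) had 3.69, 0.499 and 2.42 CPM in WT, 3.56 and 3.26 in NL and 366, 11.8, 17.4 and 13.3 in L. Again all L libraries lay above all WT and NL libraries, and L replicate 4 (20122 counts) was far above the other 3, which had between 480 and 788 counts. The log2 fold change was 5.53 ± 1.66 (edgeR, adjusted p = 0.0282). Without L replicate 4 it was 2.68 (edgeR, adjusted p = 0.00904), and leaving out WT replicate 8, 9 or 10 gave 6.13, 5.06 and 5.60 with adjusted p of 0.0665, 0.0844 and 0.0827 in edgeR. With no filter on low counts *Il1b* did not pass either (edgeR, adjusted p = 0.0819), and DESeq2 gave it no adjusted p.

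Neutrophils are a rich source of *Il1b*, and a list of 13 neutrophil genes, none of them a member, was also higher in every L library than in WT and NL. The list summed to 15.3, 21.2 and 12.9 CPM in WT, 13.8 and 13.0 in NL and 670, 144, 79.1 and 68.4 in L, and between 0 and 4 of its genes were at 0 in a library. Of the 11 list genes tested, 5 were called higher in L against WT and none lower, where 23% of all tested genes were called higher. L replicate 4 was highest in both the list and *Il1b*, but otherwise the order within groups differed. WT replicate 9 had the highest WT sum and the lowest *Il1b*. L replicate 5 had a higher sum than L replicates 6 and 7 and the lowest L *Il1b*. A list of 12 monocyte and macrophage genes summed to 828 to 2047 CPM in WT and 751 to 1038 in NL. In L replicates 4 to 7 it summed to 1336, 687, 1903 and 979 CPM. The part of these cells in the *Il1b* values was not tested.

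*Il1rn* (ENSMUSG00000026981, chr2:24336853-24351494, plus strand) had 35.6, 33 and 39.2 CPM in WT, 58.0 and 62.8 in NL and 114, 78.8, 78.8 and 52.4 in L. The antagonist was thus above WT in every *Ifnk* TG library, and L replicate 7 lay below both NL libraries. It rose by 1.17 ± 0.23 on the log2 scale from WT to L, or 2.25-fold (edgeR, adjusted p = 0.00374), and by 0.96 without L replicate 4 (edgeR, adjusted p = 0.00282). The keratinocyte list followed *Il1a* and *Il1rn* only in part. It summed to between 11196 and 14048 CPM in WT and to 28187, 21736, 22962 and 10784 CPM in L. The sum was lowest in L replicate 7, the L library with the least *Il1a* and *Il1rn*. There it lay below every WT sum, while *Il1a* and *Il1rn* lay above every WT library. The part of keratinocyte content in the *Il1a* and *Il1rn* values was not tested.

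The bases just before the transcription starts of these 3 genes are shown because they were the members that rose in L. Windows of 250 bases upstream of the RefSeq starts were taken from build GRCm38.p6, and all 9 members had at least one, 14 windows in all. A set of 5 short motifs was searched on both strands: the TATA box (TATAAA), NF-κB (GGGA, any 2 bases, TTCC), AP-1 (TGANTCA), C/EBP (TTGCNNAA) and an interferon-stimulated response element (GAAA, any 2 bases, GAAA). Capitals mark every match, and the text reads 5′ to 3′ on the strand of the gene.
*Il1a*, chr2:129309973-129310222, minus strand: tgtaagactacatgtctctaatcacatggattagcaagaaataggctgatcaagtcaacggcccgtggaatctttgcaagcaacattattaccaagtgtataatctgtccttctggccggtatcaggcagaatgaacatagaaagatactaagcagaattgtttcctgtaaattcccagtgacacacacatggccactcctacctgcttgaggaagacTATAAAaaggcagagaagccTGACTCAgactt
*Il1b*, chr2:129371140-129371389, minus strand: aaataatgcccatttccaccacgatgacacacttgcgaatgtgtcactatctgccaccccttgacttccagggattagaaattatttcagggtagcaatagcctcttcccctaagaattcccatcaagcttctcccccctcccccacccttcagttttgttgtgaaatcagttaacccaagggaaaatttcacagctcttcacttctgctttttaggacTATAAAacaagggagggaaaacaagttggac
*Il1rn*, first start, chr2:24336610-24336859, plus strand: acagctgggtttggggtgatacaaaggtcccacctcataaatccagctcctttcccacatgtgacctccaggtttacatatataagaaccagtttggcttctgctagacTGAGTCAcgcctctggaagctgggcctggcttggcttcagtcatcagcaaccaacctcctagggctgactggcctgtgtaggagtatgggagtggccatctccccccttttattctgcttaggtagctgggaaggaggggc
The TATA box letters began 32 bases before the start of *Il1a* and 31 bases before that of *Il1b*, and 12.4% of 32851 mouse windows of the same length held them on either strand. The AP-1 letters began 12 bases before the *Il1a* start and 141 bases before the first *Il1rn* start, against 6.75% of all windows. The NF-κB letters (1.21% of windows) and the interferon-stimulated response element letters (2.98% of windows) were found in none of the 14 windows, which says only that these exact letters are not in these 250 bases. The 2 other *Il1rn* windows held none of the 5 motifs. The gene table gives 1 total per gene and does not separate its starts.

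*Il18* and the receptors did not pass the test. *Il18* (chr9:50554827-50581840) had 17.1, 16.1 and 16.7 CPM in WT, 24.9 and 21.8 in NL and 54.9, 35.2, 21.7 and 17.6 in L. All L libraries were above all WT libraries, but L replicates 6 and 7 were below both NL libraries, and the log2 fold change against WT was 0.96 ± 0.36 (edgeR, adjusted p = 0.0597). Without L replicate 4 it was 0.58 (edgeR, adjusted p = 0.0847). It passed the threshold with DESeq2 (adjusted p = 0.0255), with *Xist* level as a covariate and without L replicate 6 or 7 (edgeR, adjusted p = 0.0482, 0.0418 and 0.0176). With *Il18*, 4 of 9 members had L libraries that did not overlap WT, all of them higher, where 49.4% of all tested genes did not overlap and 26% were higher without overlap.

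*Il1r2* (chr1:40074079-40125231) had 42.2, 61.5 and 47.6 CPM in WT, 50.2 and 71.9 in NL and 50.1, 27.4, 29.1 and 15.2 in L. Only L replicate 4 reached the WT range. The log2 fold change against WT was -0.73 ± 0.35 (edgeR, adjusted p = 0.128), and it was -1.08 without L replicate 4 (edgeR, adjusted p = 0.0158). *Il33* (chr19:29925114-29960718) was also highest among L libraries in replicate 4, with 50.1, 32.9 and 58.8 CPM in WT, 57.1 and 57.9 in NL and 67.6, 17.8, 29.7 and 19.4 in L. Its log2 fold change was -0.49 ± 0.46 (edgeR, adjusted p = 0.420), and -1.08 without L replicate 4 (edgeR, adjusted p = 0.0116). Both genes are therefore called lower in 3 L libraries against 3 WT libraries and not in all 4.

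Neither signalling chain passed the test. *Il1r1* (chr1:40225080-40317257) had between 36.5 and 53.7 CPM in WT and between 35.7 and 52.8 in L, with a log2 fold change of -0.04 and a 95% interval from -0.38 to 0.31. *Il1rap* (chr16:26581704-26730117) had between 25.6 and 28.7 CPM in WT and 36.7, 36.3, 30.5 and 25.9 in L, a log2 fold change of 0.28 with an interval from 0.01 to 0.54 (edgeR, adjusted p = 0.128), and it passed without L replicate 7 (0.37; edgeR, adjusted p = 0.0259). *Il1rl1* (chr1:40429570-40465415) varied within groups, with 4.88, 12.8 and 6.45 CPM in WT, 3.52 and 4.51 in NL and 7.83, 1.55, 6.87 and 15.3 in L. Its interval against WT ran from -1.28 to 1.22 on the log2 scale, wider than that of any member but *Il1b*. A list of 10 mast cell genes had its highest WT sum in the library with the highest WT *Il1rl1* (replicate 9, 320 CPM, the others 145 and 192) and its highest and lowest L sums in L replicates 7 and 5 (279 and 110 CPM), and its part in the *Il1rl1* values was not tested.

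Within a library, the balance of antagonist and agonists can be read as a ratio of length-scaled counts. *Il1rn* to the sum of *Il1a* and *Il1b* was 1.49, 2.32 and 2.61 in WT, 1.64 and 1.85 in NL and 0.10, 1.02, 1.0 and 0.830 in L. All 4 L libraries were below all 5 nonlesional ones. The mean log2 ratio was -0.89 ± 1.63 in L (SD, n = 4) and 0.95 ± 0.34 in nonlesional skin (SD, n = 5), a difference of -1.84 (exact two-sided permutation test, p = 0.0159, the smallest that 126 arrangements allow, and adjusted p = 0.0476 over 3 ratios). Without L replicate 4 the difference was -1.03 (exact permutation, adjusted p = 0.0536).

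The ratio of decoy to signalling receptor, *Il1r2* to *Il1r1*, was 3.64, 5.61 and 2.96 in WT, 4.33 and 5.88 in NL and 4.68, 2.52, 2.25 and 0.964 in L. The groups overlapped through L replicate 4, and the log2 difference of -0.95 did not pass (exact two-sided permutation test, adjusted p = 0.0794). *Il1b* to *Il1a* was 0.814, 0.113 and 0.882 in WT, 0.413 and 0.386 in NL and 14.9, 0.804, 1.78 and 1.56 in L, a log2 difference of 2.52 (exact two-sided permutation test, p = 0.0476, adjusted p = 0.0714).

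**Figure D2:**
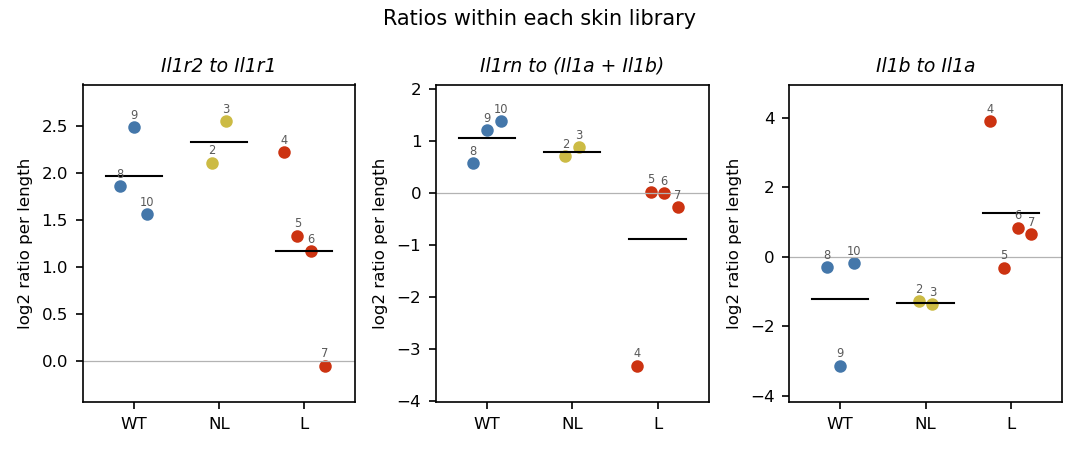
Log2 ratios of length-scaled counts within each skin library (y axis) by group (x axis: WT, NL and L), with replicate numbers and bars at the group mean. The ratio of *Il1rn* to *Il1a* plus *Il1b* lies lower in all 4 L libraries than in the 5 WT and NL libraries, with L replicate 4 far below the rest.

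L skin against NL skin of the same genotype asks what sets a lesion apart, and here none of the 9 members passed edgeR's test, where 25% of all tested genes did. At an unadjusted p under 0.05 there were 2 members, *Il1b* and *Il1r2*, and DESeq2 called 1, *Il1r2*. In every L library *Il1b* lay above both NL libraries (log2 fold change 4.90 ± 1.92, edgeR, adjusted p = 0.0974), by 2.05 without L replicate 4 (edgeR, adjusted p = 0.0565). *Il1r2* was lower in every L library (-1.0 ± 0.39, edgeR, adjusted p = 0.0940, and DESeq2 adjusted p = 0.0462). L replicate 4 (50.08 CPM) was only just below NL replicate 2 (50.15 CPM), so this separation is by a very small margin. Without L replicate 4, *Il1r2* (-1.35) and *Il33* (-1.37) both passed (edgeR, adjusted p = 0.0141 and 0.0103), and without L replicate 7 *Il1rn* did (0.58, edgeR, adjusted p = 0.0477). *Il1b* and *Il1r2* were also the only members whose L and NL libraries did not overlap with all libraries kept, where 49.4% of all tested genes did not.

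NL skin against WT skin asks whether these genes differ in transgenic skin without a lesion. It shares the NL libraries with the comparison before it and the WT libraries with that of L and WT. No member and no gene of the table passed edgeR's test (0% of 19101 genes), 3 members had an unadjusted p under 0.05, and DESeq2 also called no member. For *Il1a*, *Il1rn*, *Il1rap* and *Il18* both NL libraries lay above the 3 WT libraries, and for *Il1rl1* below them. Such non-overlap was found in 35% of all tested genes. The log2 fold changes were 1.13 ± 0.43 for *Il1a*, 0.75 ± 0.26 for *Il1rn*, 0.43 ± 0.16 for *Il1rap* and 0.49 ± 0.42 for *Il18* (edgeR, adjusted p between 0.593 and 0.793). The 12 keratinocyte genes summed to between 11196 and 14048 CPM in WT and to 20888 and 22818 CPM in NL, and their part in these values was not tested.

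Among 12 other ligands and receptors of the family, 10 had enough counts in skin, and 7 were higher and none lower in L against WT (median log2 fold change 1.72), where 23% of all tested genes were called higher. The IL-36 cytokines, epithelial agonists of the IL-36 receptor, led them. *Il36a* (listed as *Il1f6*) had 0.251, 0.190 and 0.223 CPM in WT, 0.879 and 0.172 in NL and 39.4, 27.2, 20.2 and 25.9 in L. L was thus above all nonlesional libraries by a wide margin, with a log2 fold change of 6.97 ± 0.55 against WT and 5.69 ± 0.60 against NL (edgeR, adjusted p = 0.000109 and 0.000990).

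*Il36b* and *Il36g* rose by 4.25 ± 0.39 and 2.82 ± 0.37 on the log2 scale from WT to L (edgeR, adjusted p = 0.000181 and 0.000741). The IL-36 receptor antagonist *Il36rn* rose too, by 1.77 ± 0.31 (edgeR, adjusted p = 0.00256), from a mean of 84.0 CPM in WT to 287 CPM in L, and *Il1f10*, the gene of IL-38, rose by 1.66 ± 0.27 (edgeR, adjusted p = 0.00151). The IL-18 receptor accessory chain *Il18rap* rose by 2.87 ± 0.58 and the IL-18 binding protein *Il18bp*, which neutralizes IL-18, by 1.59 ± 0.53 (edgeR, adjusted p = 0.00476 and 0.0394). The *Il18bp* call was lost in 7 of 9 fits that left out a library, held only without L replicate 5 or 7. *Il1rl2*, the IL-36 receptor, *Sigirr*, an inhibitory receptor, and *Il18r1*, the IL-18 binding chain, had log2 fold changes of 0.41, 0.69 and -0.18 that did not pass (edgeR, adjusted p = 0.0551, 0.0633 and 0.738). *Sigirr* passed without L replicate 4 (0.82, edgeR, adjusted p = 0.0332) and *Il1rl2* without L replicate 7 (0.52, edgeR, adjusted p = 0.00990). *Il1rapl1* and *Il1rapl2* had at most 2 counts in a skin library.

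Against NL skin, 4 of these 10 genes were higher in L and none lower, where 25% of all tested genes were called in either direction. They were *Il36a*, *Il36b*, *Il36g* and *Il18rap*. None of the 10 passed in NL against WT. L replicate 4 did not decide the IL-36 calls, since *Il36a*, *Il36b* and *Il36g* had log2 fold changes of 6.77, 3.95 and 2.59 against WT without it (edgeR, adjusted p = 9.29e-05, 8.94e-05 and 0.000856).

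**Figure D3:**
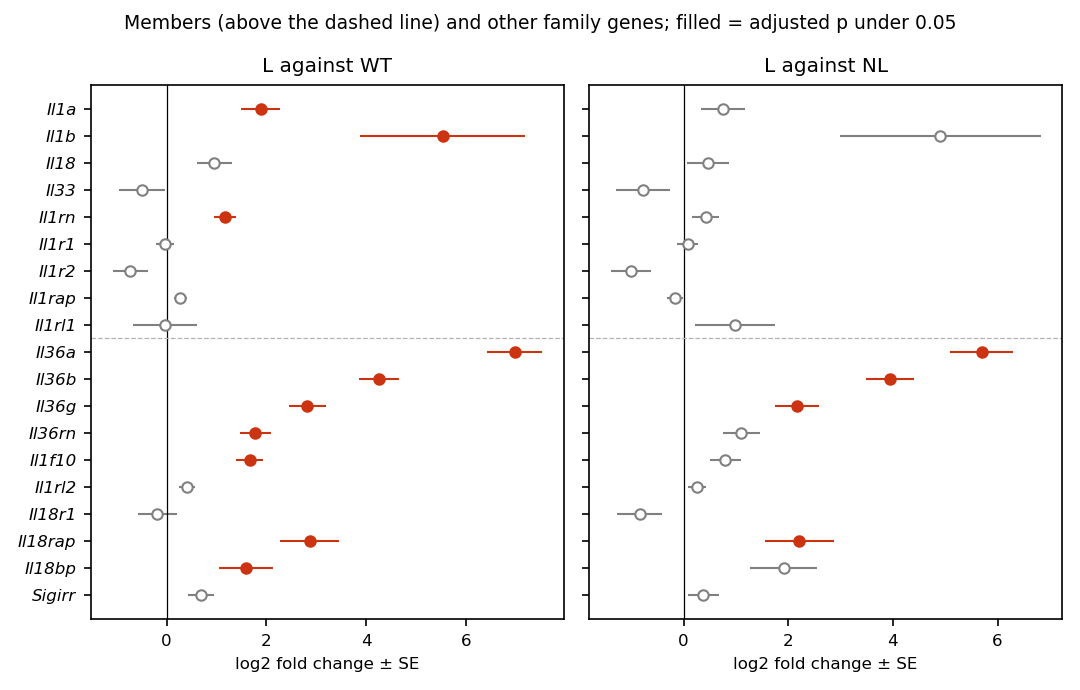
Log2 fold change with its standard error (x axis) of the 9 members, above the dashed line, and of 10 other family genes, below it, in L against WT (left) and L against NL (right). Filled red points passed edgeR's test and open grey points did not. In the left panel 3 members and 7 other genes are filled, and in the right panel no member and 4 other genes are.

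Many of these genes lie side by side. *Il1rn* lies at one end of a group of family genes on chr2:24153161-24351494, and the 6 protein-coding genes tested there, *Il36b*, *Il36g*, *Il36a*, *Il36rn*, *Il1f10* and *Il1rn*, were all called higher in L against WT. Both tested coding genes of chr2:129299610-129371139, *Il1a* and *Il1b*, were also called higher. Of all tested genes 23% were called higher. In the receptor group on chr1:40074079-40551705, which holds *Il1r2*, *Il1r1*, *Il1rl2*, *Il1rl1*, *Il18r1* and *Il18rap*, 1 of 6 was called higher and none lower. Antisense transcripts overlap some members, and since the labels do not say whether counting used strand, their reads cannot be told apart. *Il1bos* had between 6 and 130 counts in skin, at most 28.6% of the *Il1b* count of a library, *Gm14023* had at most 6.80% of the *Il1a* count there and *Gm16894* at most 0.877% of that of *Il1r2*.

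Among genes that act with the family, the list of inflammasome and processing genes had 3 of 16 tested genes called higher in L against WT and none lower (median log2 fold change 0.42), a share no larger than the 23% of all tested genes called higher. They were *Mefv* (pyrin, 1.92 ± 0.64), *Pycard* (the inflammasome adaptor ASC, 1.67 ± 0.26) and *Casp1* (caspase-1, 0.62 ± 0.18), with adjusted p of 0.0385, 0.00143 and 0.0242 in edgeR. The *Mefv* call was lost in 7 of 9 fits that left out a library, held only without L replicate 5 or 6, and the *Casp1* call was lost when any 1 WT library was left out.

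Genes of receptor signalling were split, with 1 of 24 called higher and 5 lower and a median log2 fold change of -0.02, fewer calls than the 43.1% among all tested genes. *Ube2n*, a ubiquitin-conjugating enzyme, rose by 0.35 ± 0.10 on the log2 scale, while the kinases *Mapk8* (JNK1), *Mapk14* (p38α) and *Irak1* fell by 0.82, 0.55 and 0.29 (edgeR, adjusted p = 0.0181, 0.000545, 0.00224 and 0.0169). The *Ube2n* and *Irak1* calls were lost without WT replicate 9 (0.27 and -0.26), and that of *Irak1* also without WT replicate 10 (-0.28). Like these kinases and unlike *Ube2n*, the summed muscle list was lower in L than in WT. The part of muscle content in the values of these genes was not tested. Of 22 genes known to respond to IL-1, 6 were called higher and none lower (median 1.41), near the 23% of all tested genes. The steepest were the neutrophil chemokine *Cxcl2* (8.32 ± 2.67), the acute-phase gene *Saa3* (8.20 ± 1.70) and the cytokine *Il19* (5.39 ± 1.13), with adjusted p of 0.0362, 0.00632 and 0.00540 in edgeR. *Cxcl2* rested on L replicate 4 for its size, with 3.58 without it (edgeR, adjusted p = 0.0133). Its call held in 4 of 9 fits that left out a library and was lost without WT replicate 8, 9 or 10 or NL replicate 2 or 3 (edgeR, adjusted p between 0.0569 and 0.106), with no filter on low counts (0.0999) and with only the groups compared (0.0501). *Saa3* and *Il19* were called in all 9 of these fits. Against NL skin the counts were 3 higher of 16, 2 lower of 24 and 4 higher of 22. These shares were no larger than the 25% of all tested genes called there in either direction. None of the genes on these lists passed in NL against WT.

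The genes whose profile over the 9 skin libraries was closest to a member were ranked by the root mean square (RMS) difference of log2 CPM after centring each gene. *Lce1d* and *Lce1a1*, which encode late cornified envelope proteins of the epidermis, and *Sdcbp2* were nearest to *Il1a* (RMS 0.16, 0.20 and 0.22). *Cstdc4* and the chemokines *Ccl3* and *Cxcl3* were nearest to *Il1b* (0.82, 0.83 and 0.88), at a much larger distance. *Tnfrsf25*, *Ly6d* and *Cers3* were nearest to *Il1rn* (0.10, 0.15 and 0.16), and *Klk5*, *Rps6ka6* and *Pla2g2f* to *Il18* (0.15, 0.17 and 0.19), *Klk5* being an epidermal protease. *Il1rl1* had *Cpxm1*, *Gm12222* and the mast cell tryptase *Tpsb2* nearest (0.37, 0.40 and 0.41). *Il1r2* had *2310001H17Rik*, *Tgfbi* and *Slc2a5* (0.16, 0.20 and 0.20), *Il33* had *Gm19283*, *9530018F02Rik* and *Rgs9bp* (0.30, 0.31 and 0.31), *Il1r1* had *Leo1*, *Pwp1* and *Nup153* (0.08, 0.09 and 0.09) and *Il1rap* had *Tmem123*, *Tmem63a* and *Dffa* (0.07, 0.07 and 0.07). A gene that varies little has many near neighbours, as for *Il1r1* and *Il1rap*, whose log2 CPM had an SD of 0.22 and 0.23 over the libraries.

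In lymph nodes the order of the members differed, and most were scarcer in untreated WT nodes than in WT skin. *Il1rap* was not (24.0 to 29.0 against 25.6 to 28.7 CPM), and *Il1b* overlapped (1.39 to 2.35 against 0.499 to 3.69 CPM). In untreated WT nodes *Il18* had 5.19 ± 1.74 CPM per kilobase (SD, n = 3), *Il1rap* 2.32 ± 0.222, *Il33* 2.18 ± 0.491, *Il1b* 0.987 ± 0.253, *Il1a* 0.890 ± 0.277, *Il1r2* 0.751 ± 0.0827, *Il1rl1* 0.563 ± 0.0648, *Il1r1* 0.438 ± 0.00857 and *Il1rn* 0.405 ± 0.125. *Il18* lay above all others in every library, *Il1rap* and *Il33* overlapped each other and lay above the remaining 6, and *Il1b*, *Il1a* and *Il1r2* overlapped one another. The IL-36 genes and *Il1f10* had at most 10 counts in a node library.

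UVB of the skin was followed by higher *Il1rl1* in the draining node. In WT nodes *Il1rl1* had 4.22, 4.05 and 3.38 CPM without UVB and 7.36, 6.87 and 9.01 with it. In *Ifnk* TG nodes the values were 4.05, 5.28 and 3.23 without and 8.35, 7.03 and 7.86 with UVB. All 6 UVB libraries were above all 6 untreated ones, which 1.6% of tested genes shared. In WT nodes the rise was 1.00 ± 0.20 on the log2 scale (edgeR, adjusted p = 0.0261), and it was the only one of 9 members called, where 4.98% of 16173 tested genes were called. All 805 calls of the table were lost without WT UVB replicate 8. Leaving out WT replicate 2, 3, 8 or 9 lost the call (edgeR, adjusted p between 0.0566 and 0.128) with log2 fold changes from 0.85 to 1.08.

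In *Ifnk* TG nodes the *Il1rl1* difference was 0.89 ± 0.20 (edgeR, adjusted p = 0.172, DESeq2 adjusted p = 0.00771), and edgeR called none of the 9 members and no gene of the table there (0%). There 4 members had an unadjusted p under 0.05 and DESeq2 called 1. The test of the difference between the genotypes' responses gave -0.11 for *Il1rl1* with a 95% interval from -0.66 to 0.44 (edgeR, adjusted p = 0.953). No member passed in that test, the smallest adjusted p being 0.848, no member had an unadjusted p under 0.05, DESeq2 called none, and 0% of all genes were called. Averaged over both genotypes, a comparison added after these values were seen, *Il1rl1* rose by 0.94 ± 0.14 (edgeR, adjusted p = 0.00571) and was called in all 12 fits that left out 1 library.

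The gene has 2 RefSeq starts, from which soluble and membrane forms of ST2 can be made, and the table does not separate them. The window before the first start is shown as the promoter of the member that rose after UVB, with C/EBP letters in capitals that begin 34 bases before the start and that 9.56% of all windows held.
*Il1rl1*, first start, chr1:40429320-40429569, plus strand: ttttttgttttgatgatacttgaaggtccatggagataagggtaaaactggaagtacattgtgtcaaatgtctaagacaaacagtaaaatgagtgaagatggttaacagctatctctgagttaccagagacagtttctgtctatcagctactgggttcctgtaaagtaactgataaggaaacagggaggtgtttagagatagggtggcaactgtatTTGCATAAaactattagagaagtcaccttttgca
The window before the second start, chr1:40439379-40439628, held none of the 5 motifs.

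The ST2-bearing cell types that could carry this signal were followed by their marker lists. A list of 6 regulatory T cell genes summed to between 201 and 251 CPM in WT nodes without UVB and to between 257 and 291 CPM with UVB, whereas in *Ifnk* TG nodes the sums were 213 to 229 CPM without and 173 to 283 CPM with UVB. The 7 genes of type 2 innate lymphoid cells summed to between 53.5 and 61.0 CPM in WT nodes without UVB and to between 56.3 and 65.7 CPM with it, and the mast cell list to between 12.3 and 16.7 and between 12.0 and 13.6 CPM. In *Ifnk* TG nodes the innate lymphoid sums were 57.3 to 69.4 CPM without and 56.9 to 66.6 CPM with UVB, and the mast cell sums 10.9 to 15.9 and 11.5 to 18.7 CPM. The regulatory T cell sums did not overlap by treatment in WT nodes and did in *Ifnk* TG nodes. In nodes, 4 of the 7 innate lymphoid genes and 8 of the 10 mast cell genes passed the filter on low counts. Of the 7, 1 or 2 were at 0 in each node library, so these sums say little about cell numbers. The part of these cells in the *Il1rl1* values was not tested. *Itgae*, the integrin chain CD103, *Grhl1* and *Rmdn2* had the profiles nearest to *Il1rl1* over the 12 node libraries (RMS 0.20, 0.20 and 0.23).

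**Figure D4:**
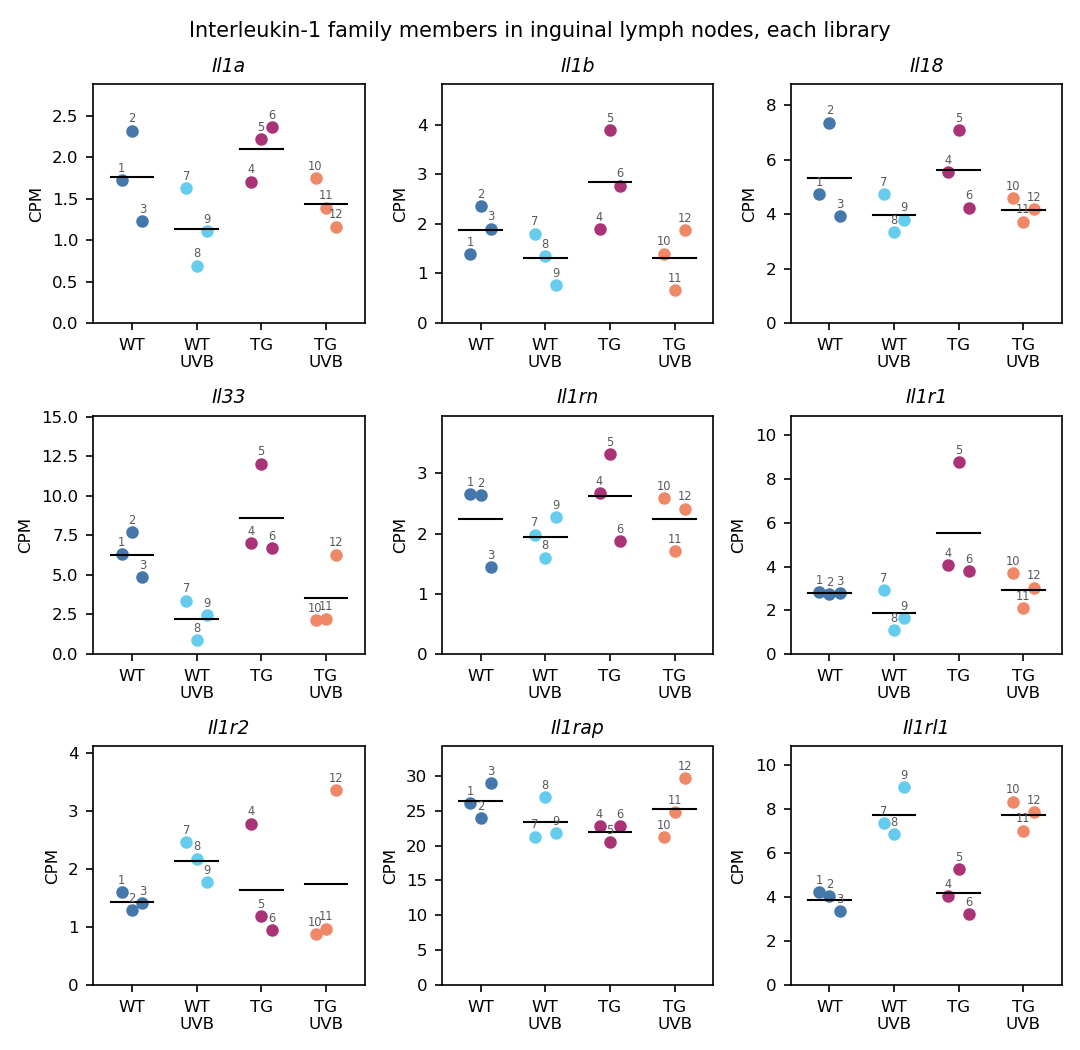
CPM of the 9 genes in each lymph node library (y axis, linear from 0) by group (x axis: WT, WT with UVB, *Ifnk* TG and *Ifnk* TG with UVB). Points are libraries labelled by replicate number, and bars are group means. *Il1rl1* is higher in all 6 UVB libraries than in all 6 libraries without UVB, and *Il33* is lower with UVB within each genotype.

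Its ligand had the opposite sign. *Il33* had 6.31, 7.68 and 4.85 CPM in WT nodes and 3.36, 0.873 and 2.45 after UVB, and 7.00, 12.0 and 6.69 CPM in *Ifnk* TG nodes and 2.12, 2.23 and 6.27 after UVB. The groups did not overlap within a genotype. The log2 fold changes were -1.48 ± 0.50 in WT (edgeR, adjusted p = 0.101) and -1.27 ± 0.49 in *Ifnk* TG nodes (edgeR, adjusted p = 0.466). In WT nodes DESeq2 and a fit of the 2 groups alone called it (adjusted p = 0.0140 in DESeq2 and 0.0377 in edgeR). Averaged over genotypes *Il33* fell by 1.38 on the log2 scale (SE 0.35, edgeR, adjusted p = 0.0383), so that 2 of 9 members were called in that comparison, where 8.61% of all genes were. That call was lost in 10 of 12 fits that left out a library.

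Stromal genes followed *Il33* in part. A list of 8 fibroblast genes, each detected in every node library, summed to 71.9, 68.4 and 51.3 CPM in WT nodes and to 41.1, 15.2 and 16.0 CPM after UVB, and to 59.4, 119 and 61.8 CPM in *Ifnk* TG nodes and to 32.3, 21 and 59.8 CPM after UVB. The *Ifnk* TG library with the highest *Il33*, replicate 5, and the UVB library with the highest *Il33*, replicate 12, also had the highest fibroblast sums of their groups. Within groups the full order was the same only in WT nodes after UVB. WT replicate 2, for example, had the highest untreated WT *Il33* but not the highest sum. By treatment the fibroblast sums overlapped in *Ifnk* TG nodes, where *Il33* did not. A list of 7 node stroma genes went from between 24.7 and 29.4 CPM to between 9.49 and 16.6 CPM in WT nodes. In *Ifnk* TG nodes it went from between 29.4 and 63.6 CPM to between 10.4 and 22.6 CPM. A list of 7 blood endothelium genes summed to 275 to 325 CPM without and 199 to 238 CPM with UVB in WT nodes. In *Ifnk* TG nodes its sums overlapped (266 to 267 CPM without and 226 to 269 CPM with UVB). *Ecscr*, *Pdlim3* and *Sparc*, genes of endothelium, muscle-type cytoskeleton and matrix, had the profiles nearest to *Il33* (RMS 0.25, 0.28 and 0.29). The study passed the nodes through a cell strainer before lysis, and how much stroma each library kept is not known. The part of stromal content in the *Il33* values was not tested.

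**Figure D5:**
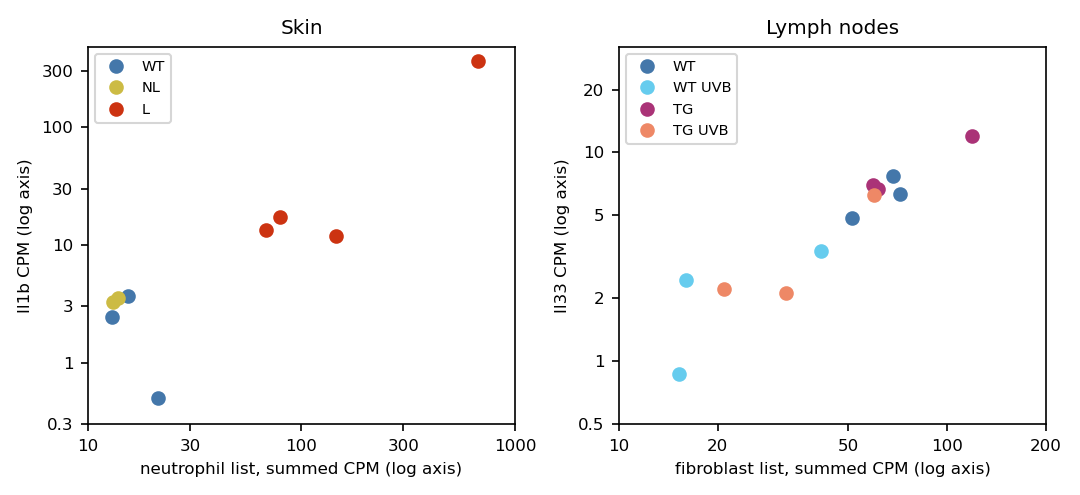
Left: *Il1b* CPM (y axis) against the summed CPM of 13 neutrophil genes (x axis) in 9 skin libraries. Right: *Il33* CPM (y axis) against the summed CPM of 8 fibroblast genes (x axis) in 12 node libraries. All axes are logarithmic and colours mark the groups. L replicate 4 is at the upper right of the left panel (670 CPM and 366 CPM), and *Ifnk* TG replicate 5 is at the upper right of the right panel.

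No other member passed edgeR's test in a node comparison with all libraries kept. Averaged over genotypes, *Il1b* (-0.82) and *Il1r1* (-0.73) had adjusted p of 0.0906 and 0.0969 in edgeR and passed with DESeq2 (adjusted p = 0.0462 and 0.0485). *Il1b* also passed without *Ifnk* TG UVB replicate 12 and *Il1r1* without WT UVB replicate 7 (edgeR, adjusted p = 0.0233 and 0.0458). After UVB *Il1b* was lower in every *Ifnk* TG library than in every untreated one (0.661 to 1.87 against 1.89 to 3.89 CPM, log2 fold change -1.11 ± 0.41, edgeR, adjusted p = 0.433), and so was *Il1r1* (2.09 to 3.69 against 3.78 to 8.77 CPM, -0.91 ± 0.37, edgeR, adjusted p = 0.476). The neutrophil list summed to 10.7, 18.2 and 12.9 CPM in these nodes without UVB and to 4.74, 5.15 and 17.3 CPM with it, and the fibroblast sums given above were highest, like *Il1r1*, in *Ifnk* TG replicate 5. The part of these cells in the *Il1b* and *Il1r1* values was not tested. With *Il33* and *Il1rl1* these made 4 members that did not overlap by treatment in *Ifnk* TG nodes, where 13.3% of all tested genes did not overlap. In WT nodes *Il33*, *Il1rl1* and *Il1r2* did not overlap, where 37.1% of all genes did not. *Il1r2* had 1.6, 1.29 and 1.41 CPM without and 2.46, 2.18 and 1.78 CPM with UVB (0.58 ± 0.50, edgeR, adjusted p = 0.490). *Il1a*, *Il18* and *Il1rn* had log2 fold changes between -0.62 and -0.20 in both genotypes, and *Il1rap* had -0.18 in WT and 0.20 in *Ifnk* TG nodes, none past the threshold.

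Without UVB, *Ifnk* TG and WT nodes differed in no member and in no gene of the table by edgeR (0%), with 1 member at an unadjusted p under 0.05 and none called by DESeq2. *Il1r1* was that member, with 4.05, 8.77 and 3.78 CPM in *Ifnk* TG and 2.84, 2.73 and 2.79 in WT nodes (log2 fold change 0.99 ± 0.37, edgeR, adjusted p = 1). It was higher and *Il1rap* lower in every *Ifnk* TG library, and 10.5% of all genes did not overlap here. With UVB, no member was called between the genotypes (0% of all genes), none had an unadjusted p under 0.05, DESeq2 called none and every member overlapped between the groups, where 9.71% of all genes did not. For *Il1rl1* the interval of that difference was narrow, from -0.38 to 0.38 on the log2 scale.

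Of the wider lists in WT nodes after UVB, the inflammasome adaptor *Pycard* (-0.67 ± 0.15) and the kinase adaptor *Tab1* (-0.74 ± 0.17) were called lower and the transcription factor *Jun* (0.92 ± 0.14) and the RNase *Zc3h12a* (0.76 ± 0.15), which degrades cytokine transcripts, higher (edgeR, adjusted p = 0.0318, 0.0347, 0.0150 and 0.0261). These 4 genes are named after their values were seen. They were 1 of 16 inflammasome genes, 2 of 24 signalling genes and 1 of 9 response genes tested, beside 4.98% of all genes. Each of the 3 counts fell to 0 without WT replicate 3 or WT UVB replicate 8. None of the 5 other ligands and receptors tested in nodes passed. None of these genes passed edgeR's test in the other planned node comparisons, in which no gene of the table was called.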

How the data were processed

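Bulk poly-A RNA-seq of mouse skin (9 libraries) and inguinal lymph nodes (12 libraries) was used as 1 gene table per tissue. The authors deposited expected counts per gene as whole numbers, not normalized. The submitters' processing notes name STAR 2.7.8a, RSEM 1.3.3, cutadapt 4.8, FastQC 0.11.8 and MultiQC 1.20, and the build was GRCm38. The annotation release and the use of strand are not given in the sources used here. RSEM shares reads between overlapping or similar genes, so low values next to an abundant neighbour are less certain. The rows that name no mouse gene, all at 0 counts, were left out.

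Genes were kept by filterByExpr of edgeR (minimum count 10, minimum total 15) and tested with edgeR 4.0.16 (R 4.3.3), TMM scaling and the robust quasi-likelihood F-test, with all libraries of a tissue in 1 fit. The study itself used DESeq2, which was run as an alternative (version 1.42.0). p-values were adjusted by Benjamini-Hochberg over 19101 genes in skin and 16173 in nodes, with a threshold of 0.05. The standard error was the log2 fold change divided by the square root of F, and intervals ran 1.96 standard errors either side. That is the 95% quantile of a normal distribution, and the F-test with few libraries needs a larger one. The intervals are therefore narrower than 95% intervals of that test. Ratios within a library used counts divided by exon length and an exact two-sided permutation test over libraries. Exon length was the union of all annotated exons of a gene, and the level of a ratio depends on it. Libraries held between 27599809 and 56511276 counts. The code was tested on simulated counts.

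The members and lists were chosen with earlier results of these data known. Named were the 9 members, every other family ligand and receptor listed, the 3 list genes with the largest rise and the 3 with the largest fall among those called in L against WT, and the 3 genes nearest to each member in profile. The UVB comparison averaged over genotypes was added after the values were seen. Alternatives were DESeq2, RLE scaling, no filter or at least 10 counts in every library, *Xist* as a covariate, only the groups compared, removal of hair, muscle and fat genes, and leaving out each library. Promoter windows came from RefSeq (GRCm38.p6).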

Additional observations from a re-analysis of the deposited data

Results flagged for a closer look

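L replicate 4 lay far from the other L libraries in 2 of the 12 measures examined in L skin. For *Il1b* its gap to the nearest library was 0.984 of the whole range in CPM (366 against 11.8, 13.3 and 17.4), above Dixon's 95% critical value for 4 libraries. For the log2 ratio of *Il1rn* to *Il1a* plus *Il1b* the gap was 0.911 of the range, with linear ratios of 0.10 in replicate 4 and 0.830, 1.0 and 1.02 in the others. *Il1b* enters both measures. Chance alone passes this limit in about 1 of 20 groups, and the other 10 measures, the other 8 members among them, had gaps between 0.425 and 0.762.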

How the results depend on the processing

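No paired analysis was possible because the replicate numbers are serial sample numbers, unique within a tissue, and no label ties NL and L skin to a mouse. DESeq2 called 1 member in L against NL, 2 in WT nodes after UVB, 1 in *Ifnk* TG nodes after UVB and 4 averaged over genotypes, where edgeR called 0, 1, 0 and 2. A fit of the compared groups alone called 2 in WT nodes after UVB. The averaged count was 1 with no filter and 1 with *Xist* as a covariate. Leaving out 1 library moved the count between 2 and 5 in L against WT, 0 and 2 in L against NL, 0 and 2 in WT nodes after UVB and 1 and 3 averaged over genotypes. The ratio of *Il1rn* to *Il1a* plus *Il1b* was -1.95 against WT alone, where 4 against 3 libraries could not pass after adjustment over 3 ratios, and between -2.15 and -1.03 without a library, past the threshold in none of these 9 fits, in which a ratio that alone separates the groups cannot pass after adjustment over 3 ratios. No value of any result changed sign with a call. The causes were not tested.

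Over all genes, WT nodes after UVB had 805 calls and between 212 and 2431 under alternatives with all libraries, and L against NL had 4782 and between 3156 and 5918. Leaving out 1 library moved them to between 0 (without WT UVB replicate 8) and 2644 (without *Ifnk* TG UVB replicate 12) and to between 1182 (without NL replicate 3) and 5187 (without L replicate 4), so the shares of all genes called move with them. With NL against WT and *Ifnk* TG nodes after UVB, both at 0, the alternatives reached 62 and 134, and averaged over genotypes 1393 calls became between 1064 and 2406. Of list counts in L against WT, inflammasome genes called were 3 with edgeR and 5 with DESeq2, and response genes 6 and 3 with at least 10 counts in every library. With 2 NL libraries and 3 libraries per node group, and with few counts of most members in nodes, a change that did not pass is not shown to be absent.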
